A study of Saccharomyces cerevisiae with 4 samples.

Results

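Budding yeast cells that lack HFI1, the gene also called ADA1, were compared with wild-type cells on microarrays that measure messenger RNA. The comparison took in 3 of the 4 arrays of the study, chosen by genotype from the labels. There was 1 array of the ada1 deletion strain and there were 2 arrays of wild type, called replicate 1 and replicate 2, and the array left out carried a gcn5 deletion strain. All strains were BY4742, a haploid laboratory strain of mating type alpha that lacks LEU2, LYS2 and URA3 and carries a HIS3 allele with an internal deletion. The deletion strain was made by homologous recombination that put a KanMX cassette, which gives resistance to geneticin, in place of the gene. Every culture was a 5 ml culture in the rich glucose medium YPD, and cells were collected in exponential phase at an optical density of 0.7. Biotin-labelled RNA made from 200 ng of total RNA was hybridised to 1-colour Affymetrix arrays. The ada1 deletion side is a single array, so its own spread was not measured. The labels do not say if the wild-type arrays stand for separate cultures, and p-values therefore reflect no more than the spread between those arrays, possibly technical. The arrays carry 5716 probe sets, which stand for 5667 genes and unnamed probe sets, and 4541 of them were bright enough on average to be tested.

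HFI1 encodes a structural subunit of SAGA, a large coactivator complex that activator proteins bring to promoters. SAGA acetylates histone H3 through its subunit Gcn5, removes ubiquitin from histone H2B through Ubp8, and helps to place TATA-binding protein at promoters. Hfi1 pairs with Taf12 in the core of the complex, and strains without it are known to lose an intact SAGA, whereas strains without Gcn5 keep the core. The complex is best known in this organism for its part at genes that are switched on by nutrients, stress or cell type, such as the acid phosphatase gene PHO5, on which much of what is known about chromatin opening at promoters was learned.

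HFI1 had a signal of 6.70 in the ada1 deletion array, against 246 and 279.8 in wild-type replicates 1 and 2, so the label holds. Wherever a pair of wild-type signals follows, replicate 1 comes first. LEU2, LYS2 and URA3 were at 23.2 or less on all 3 arrays. GCN5 had 333 in the ada1 deletion array, against 308 and 385 in wild type. The flanking genes BBP1, a gene of the spindle pole body, and VIK1, a kinesin-associated protein gene, had 152 and 157 in the ada1 deletion array, against 128 and 210.2 and 122 and 194 in wild type, and neither passed the test. The 7 a-specific genes, which mating type alpha keeps off, lay between 6.74 and 107 on the 3 arrays, and none of them reached the background level used for the tests, a signal of 166.

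Signals are MAS5 intensities, a summary of the probes of each probe set on a linear scale. A probe set was tested where its mean log2 signal reached the 20th percentile of all, a signal of 166, called the background level here. The test was limma's moderated test on log2 signal, with Benjamini-Hochberg adjustment over all genes tested. A gene is called changed, and is said to have risen or fallen, where the adjusted p was under 0.05 and the difference was 2-fold or more, in the same direction, against each wild-type array. All differences below are ada1 deletion minus the mean of wild type on the log2 scale, ± the standard error of the fit. That error rests on the wild-type pair alone, since 1 residual degree of freedom was left, and on what genes of like signal share. Where the ada1 deletion array was under the background level, a fall is given as at least N-fold. That bound sets the mean log2 signal of the wild-type arrays against the level. It is smaller against the dimmer wild-type array alone.

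Far more genes fell than rose. Of 4541 genes tested, 175 (3.85%) fell and 35 (0.771%) rose, together 4.62% of all. These shares are the scale for the counts in gene lists below. The falls were also the larger changes. Against each wild-type array, 51 falls reached 4-fold, 24 reached 8-fold and 10 reached 16-fold, while 4 rises reached 4-fold, 2 reached 8-fold and 0 reached 16-fold. The median difference was -1.75 among the falls and 1.46 among the rises, against 0.08 over all genes tested. In 52 of the 175 falls the ada1 deletion signal was under the background level, so the true size of those falls is not known. In 3 of the 35 rises both wild-type signals were under that level. Some rises, among them SUL2, THI13, HUG1 and PDR11, passed the filter only because the ada1 deletion array counts in the mean. The adjusted p alone was passed by 259 lower (5.7%) and 124 higher genes (2.73%), and the 2-fold rule alone by 178 (3.92%) and 39 (0.859%). With other settings of the test and fold, rises numbered 8 to 109 and falls 88 to 246. The excess of falls was smaller without the filter on dim probe sets, where 231 fell and 87 rose. It was also smaller with the background level taken from genes the strain lacks, where 204 fell and 78 rose.

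For scale, the wild-type arrays differed from each other by a median absolute value of 0.26 and, at the 95th percentile, by 0.73 on the log2 scale. By 2-fold or more, 34 genes (0.749%) were higher and 15 (0.33%) lower in replicate 1 than in replicate 2. The ada1 deletion array and replicate 1 reached top signals of 21989 and 23746, against 11804 in replicate 2, so bright genes compare best with replicate 1. Against replicate 1 alone, 120 genes (2.64%) were 2-fold higher and 200 (4.4%) 2-fold lower in the ada1 deletion array, and against replicate 2 alone 69 (1.52%) and 229 (5.04%). Among the genes with the largest gap between the wild-type arrays were AAD4, a putative aryl-alcohol dehydrogenase gene, with 64.6 in the ada1 deletion array against 29.7 and 661 in wild type, and DOG2, a 2-deoxyglucose-6-phosphate phosphatase gene, with 124 against 66.6 and 1040.2. PAU23, of the seripauperin family, had 1810.3 against 2712 and 179.8. The others of these 5 were unnamed probe sets, with 999.7 against 1035 and 29.9 and 64.3 against 28.3 and 736. In none of the 5 did the ada1 deletion array stand apart from both wild-type arrays on 1 side, and none was called.

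**Figure D1:**
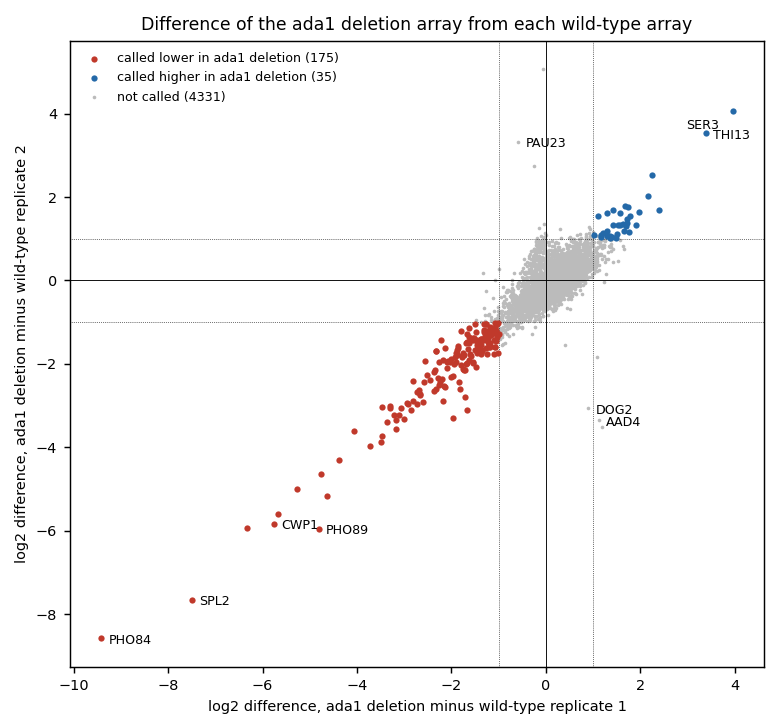
Each point is 1 of the 4541 genes tested, placed by its log2 difference (ada1 deletion minus wild type) from wild-type replicate 1 on the horizontal axis and from replicate 2 on the vertical axis; dotted lines mark 2-fold. The 175 called falls in red run down the diagonal to PHO84 at -9.42 and -8.57, the 35 called rises in blue reach SER3 at 3.96 and 4.05, and genes on which the wild-type arrays disagree, such as PAU23, DOG2 and AAD4, lie off the diagonal and are not called.

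Where in the range of signal the changes lay differed by direction. With the tested genes in 5 equal classes by wild-type signal, the falls from the dimmest to the brightest class numbered 4, 26, 44, 41 and 60. The rises in the same order numbered 18, 5, 3, 6 and 3. A dim gene cannot be measured to fall far, and its share in these counts was not tested. The median difference over all genes in the dimmest class was 0.39 against replicate 1 and 0.11 against replicate 2. In the brightest class it was -0.11 against replicate 1 and 0.12 against replicate 2.

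The 30 leading falls, ranked by the smaller of the differences against the wild-type arrays, took in phosphate genes, mating genes, stress and cell wall genes and sugar transporters. Several of them are not members of those groups. YHB1, the flavohemoglobin that detoxifies nitric oxide, had a signal of 769.6 in the ada1 deletion array, against 8577 and 6318 in wild type, a fall of 3.26 ± 0.26. ARO9, an aromatic aminotransferase gene, had 54.8 against 568 and 575, at least 3.45-fold lower. The transcription regulator gene RPI1 had 34.3 against 309.5 and 348 and was at least 1.98-fold lower. The ranking picks genes whose ada1 deletion signal is well under both wild-type signals. The wild-type signals of ARO9 and RPI1 lay close together, but those of PHO89, also among the 30, differed by more than 2-fold (1028 and 2285).

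TIR1, a cell wall mannoprotein gene induced by cold and low oxygen, had 279 in the ada1 deletion array, against 2010.1 and 2389 in wild type (-2.97 ± 0.22). YDL124W, an aldo-keto reductase gene, had 318 against 2230.0 and 2335 (-2.84 ± 0.23), and PNS1, a membrane protein gene, 76.7 against 580.0 and 595 (at least 3.54-fold lower). The less characterised YGR035C and YMR230W-A and an unnamed probe set were at least 3.31-fold, 2.19-fold and 2.22-fold lower. The largest adjusted p among the 30 was 5.55e-10 as deposited (limma) and 1.17e-05 after quantile normalization. When dim signals were set to the background level before the fit, 26 of the 30 stayed called, and BUD9, RPI1, YMR230W-A and the unnamed probe set did not, their adjusted p reaching 0.13. As bulk RNA, none of these values tells fewer cells that express a gene from less RNA per cell.

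**Figure D2:**
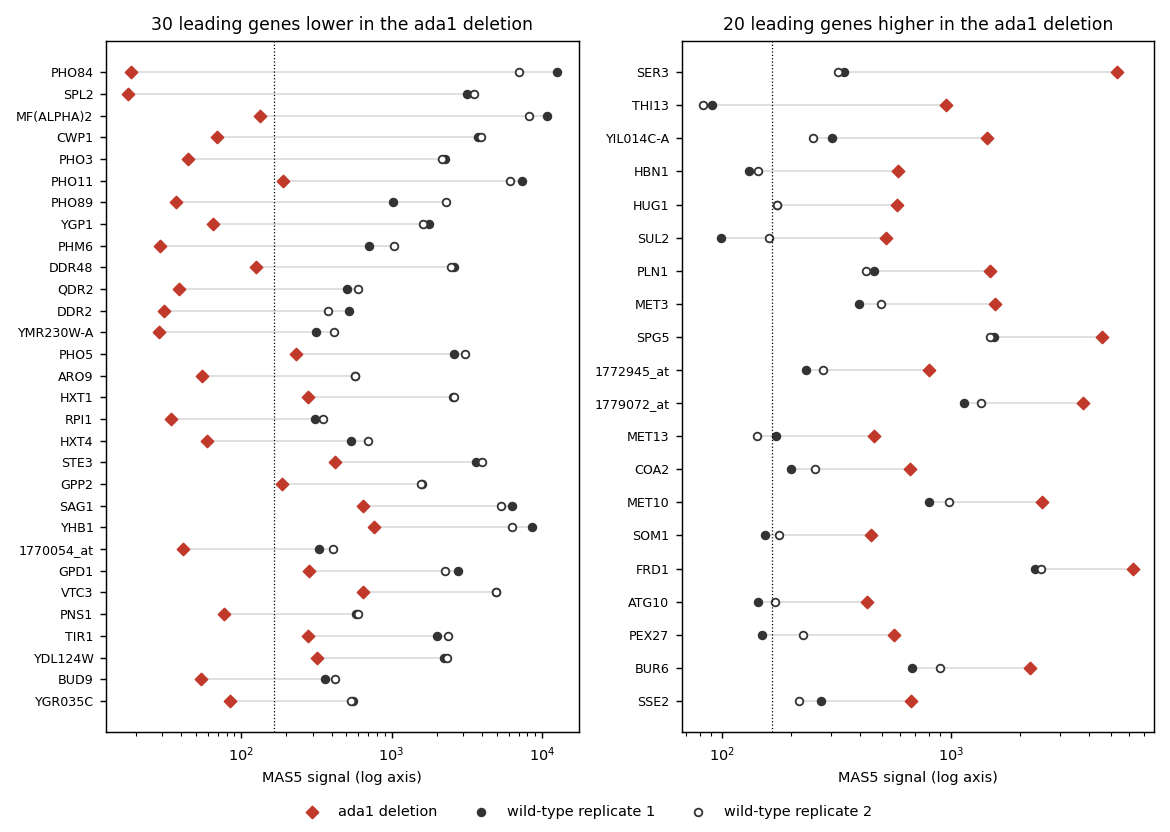
MAS5 signal (log axis) of the 30 leading falls (left) and the 20 leading rises (right) in the ada1 deletion array (red diamonds), wild-type replicate 1 (filled circles) and wild-type replicate 2 (open circles); the dotted line is the background level of 166. By the rule that chose these genes, the ada1 deletion signal lies outside the wild-type pair for each. The signals run from 18.4 against 12610.3 and 7020.3 in wild type for PHO84 to 5332 against 342 and 321 in wild type for SER3.

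Most of the genes that yeast uses to gain phosphate fell. Pho4 is the activator of these genes and is kept out of the nucleus by the kinase pair Pho80 and Pho85 while phosphate is plentiful. Its targets encode transporters at the plasma membrane, acid phosphatases secreted into the cell wall, and the enzymes that store phosphate as polyphosphate in the vacuole. Of the 15 tested genes of this regulon 10 fell and 0 rose, with a median of -2.94 against 0.08 over all genes tested. The 4 members too dim to test (PHM7, PHM8, GIT1 and CTF19) are not in that median, which was -1.77 with them included and -2.37 with dim signals raised to the background level.

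Among the transporters, PHO84 had 18.4 in the ada1 deletion array, against 12610.3 and 7020.3 in wild type (lower by at least 56.8-fold), and the sodium-coupled PHO89 had 36.8 against 1028 and 2285, at least 9.25-fold lower. SPL2, whose product holds back low-affinity uptake, had 17.6 against 3172 and 3550.0. For all 3 the ada1 deletion signal was under the background level, while both wild-type signals were above the median of their arrays. The secreted acid phosphatase genes PHO5 and PHO11 stayed just above background, with 233 and 191 in the ada1 deletion array, against 2595 and 3075 and against 7387 and 6088 in wild type (-3.60 ± 0.27 and -5.14 ± 0.23). PHO11 is read by a shared probe set that may also bind its near-copy PHO12.

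The polyphosphate polymerase complex of the vacuole changed by less, and unevenly. VTC3 had 645 in the ada1 deletion array, against 4964 and 4955 in wild type, and the catalytic subunit gene VTC4 1129 against 3808 and 3747. These were falls of 2.94 ± 0.22 and 1.74 ± 0.23. VTC1 (4438 against 10981 and 7055, -0.99 ± 0.46) and VTC2 (1531 against 2516 and 2361, -0.67 ± 0.22) lay below both wild-type arrays as well but were not called. PHO8, the vacuolar alkaline phosphatase gene, was lower too without a call (-0.88 ± 0.22). PPN1, a polyphosphatase gene, was the 1 tested member above 0, at 0.59 ± 0.22, and was not called.

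PHO81, the inhibitor of the Pho80-Pho85 kinase and itself a Pho4 target, had 424 in the ada1 deletion array, against 1313 and 1598 in wild type, a fall of 1.77 ± 0.26. Of 10 genes of phosphate signalling and low-affinity uptake, 0 were called by limma with the 2-fold rule, with 2 lower and 1 higher at an unadjusted p under 0.05, and the median was -0.08 (0.03 against replicate 1). PHO4 itself had 98.0 against 183 and 280.0, at least 1.36-fold lower (adjusted p = 0.00711, limma), and missed the 2-fold rule against replicate 1, but it was called after quantile normalization and after scaling to a common median. The kinase genes PHO80 and PHO85 had 505 and 542 in the ada1 deletion array, against 504 and 559 and against 523 and 634 in wild type. PHO87, a low-affinity transporter gene, was at 0.70 ± 0.36 without a call.

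Genes that give an alpha cell its mating type fell as a set, while the rest of the pheromone pathway was mixed. All 4 alpha-specific genes fell (median -3.17). The smallest fall was that of MF(ALPHA)1, the main alpha-factor gene, with 2602 in the ada1 deletion array, against 11518 and 8012 in wild type (-1.88 ± 0.45), and it was not called after scaling to a common median. Its lesser copy MF(ALPHA)2 was down to 134 against 10769.5 and 8181, at least 56.6-fold lower. MCM1, whose product activates alpha-specific genes together with the alpha1 protein, had 228 against 478 and 687 and fell by 1.33 ± 0.38, a call lost with dim signals raised to the background level.

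Of 22 tested genes that respond to pheromone or are made only in haploids, 6 fell and 0 rose, and the median was -0.53. Besides FAR1, which arrests the cell cycle, and RME1, a repressor of meiosis (at least 4.68-fold lower, and -2.28 ± 0.30), these were FUS3, the mating kinase, with 104 in the ada1 deletion array, against 302 and 400.0 in wild type (lower by at least 2.10-fold), FUS1, a cell fusion gene, with 146 against 410.4 and 461 (at least 2.62-fold), GPA1, the G-protein alpha subunit gene, with 411 against 870.5 and 1236 (-1.34 ± 0.30), and PRM4, with 141 against 339.9 and 291 (at least 1.90-fold). The partners of GPA1 were not called. STE4, the beta subunit gene, had 723 against 1065 and 1246 (-0.67 ± 0.24), and STE18, the gamma subunit gene, was above both wild-type arrays with 459.7 against 236 and 258 (0.90 ± 0.40). The activator gene STE12 (-0.43 ± 0.36) and the scaffold gene STE5 (-0.10 ± 0.40) were not called. With dim signals raised to the background level the 6 falls became 3, since FUS3, GPA1 and PRM4 lost their calls, and PRM4 also lost it with a common median and with the background level taken from genes the strain lacks.

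After cytokinesis the daughter cell alone activates a set of genes that digest the septum and free it from its mother. All 16 tested genes of this group were lower in the ada1 deletion array than the mean of wild type, and 10 of them fell, with a median of -1.38. BUD9, a bud-site gene, had 54.3 in the ada1 deletion array, against 361 and 421 in wild type (lower by at least 2.35-fold), and was not called with dim signals raised. The largest of the falls above the background level was that of CTS1, the endochitinase gene, with 1782 against 8932 and 5729.6 (-2.005 ± 0.37). Other genes of septum digestion were among the falls. SUN4, a glucosidase-related gene, had 1352 in the ada1 deletion array, against 4906 and 3985 in wild type (-1.71 ± 0.26), the glucanase genes SCW11 and DSE4 had 806 and 938 against 2326 and 2173 and against 2413 and 2469.6 (-1.48 ± 0.22 and -1.38 ± 0.22), and EGT2 had 1249 against 3246 and 3297 (-1.39 ± 0.24). In SCW11, DSE4 and EGT2 the wild-type arrays lay close together. A call requires the ada1 deletion array to lie below both.

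ASH1, the repressor of mating-type switching that is made from messenger RNA carried into the bud, had 333 in the ada1 deletion array, against 1255 and 1179 in wild type (-1.87 ± 0.27). DSE2 also fell (-1.18 ± 0.28), but not after quantile normalization or scaling to a common median. DSE1 (-1.14 ± 0.32) and PRY3 (-1.02 ± 0.40) lay below both wild-type arrays without a call, and the cyclin-dependent kinase inhibitor gene SIC1, also made in late mitosis, had 253 against 350.4 and 471 and was not called (-0.68 ± 0.40).

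Fewer calls were made in other cell cycle clusters. Of 18 tested genes of the G1-S cluster, which is switched on at the start of the cycle, 3 fell and 0 rose, 16 lay below 0, and the median was -0.65. By the adjusted p alone 6 were lower. The 3 falls were the S-phase cyclin gene CLB6 with 60.3 in the ada1 deletion array, against 234 and 588 in wild type, SVS1, a wall protein gene, with 664 against 2772 and 2549, and RNR1, the large subunit gene of ribonucleotide reductase, with 854 against 2717 and 2367. CLB6 was at least 2.24-fold lower, and the differences of the other two were -2.001 ± 0.22 and -1.57 ± 0.22. The G1 cyclin genes CLN1 (-1.03 ± 0.36) and CLN2 (-0.94 ± 0.35) were under both wild-type arrays but not called. After quantile normalization CLN1 and another member, PCL2, were called lower. CLB6 lost its call with dim signals raised to the background level.

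Of 17 tested genes of the CLB2 cluster, made before mitosis, the fall of CLB1 was the only call, while 14 lay below 0 (median -0.32). CLB2 itself had 124 in the ada1 deletion array, against 235 and 363 in wild type (lower by at least 1.76-fold), short of 2-fold against replicate 1. After quantile normalization CLB2 and HST3, another member, were called lower as well. Of 10 tested histone genes 0 were called by limma with the 2-fold rule, with 1 lower and 0 higher at an unadjusted p under 0.05. That gene was HHO1, the linker histone gene, with 703 against 1363 and 1583 (-1.06 ± 0.22). HHO1 missed a call only by the 2-fold rule against replicate 1 (-0.96 against replicate 1 and -1.17 against replicate 2). The core histone genes HTA1, HTB1, HHT1 and HHF1 lay between -0.12 and 0.23.

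**Figure D3:**
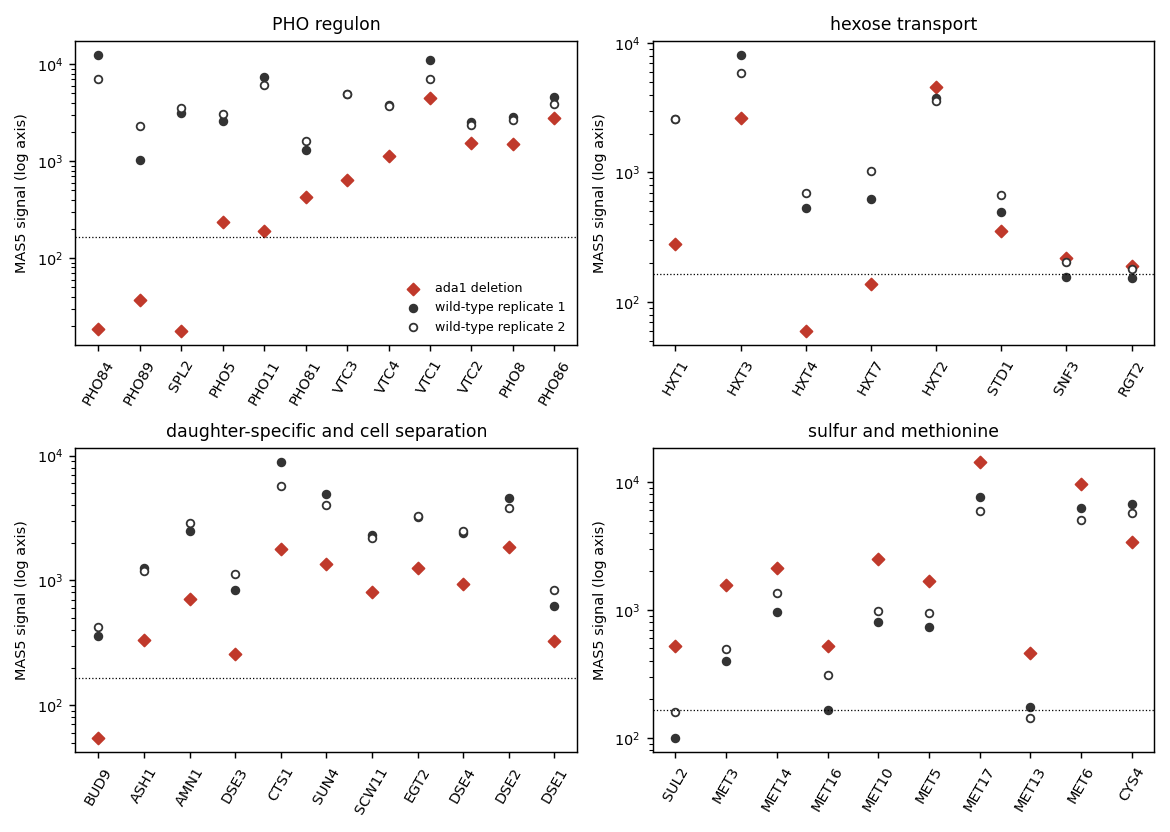
MAS5 signal (log axis) of chosen genes from 4 gene lists in the ada1 deletion array (red diamonds), wild-type replicate 1 (filled circles) and wild-type replicate 2 (open circles), with the background level of 166 dotted. The ada1 deletion signal lies under both wild-type arrays for every phosphate and daughter-specific gene shown, for HXT1, HXT3, HXT4, HXT7 and STD1 but not HXT2, SNF3 or RGT2, and above both for the sulfur genes shown other than CYS4, which had 3399 against 6793 and 5709 in wild type.

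Stress genes split. Under stress, yeast raises a common set of genes through the activators Msn2 and Msn4, and separately raises chaperones through the heat shock factor Hsf1. Of 29 tested general stress genes 11 fell and 0 rose (median -0.67, or -0.41 with dim signals raised to the background level). Enzymes that prepare glucose for storage or use were among the falls, with the hexokinase gene HXK1 at 259 in the ada1 deletion array, against 1037 and 1294 in wild type (-2.16 ± 0.26), the glucokinase gene GLK1 at 845 against 2028 and 2157 (-1.31 ± 0.22), and TSL1, a trehalose synthase subunit gene, at 249.7 against 683 and 674 (-1.44 ± 0.31). PNC1, the nicotinamidase gene, had 348 against 1794 and 1598 (-2.28 ± 0.23).

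HSP12, the membrane heat shock protein gene often used as a marker of this response, had 125 in the ada1 deletion array, against 586 and 337 in wild type (lower by at least 2.68-fold), and lost its call with dim signals raised. HOR7 fell as well (-2.01 ± 0.36), as did SPI1 (at least 3.48-fold lower) and YGP1, DDR48 and DDR2, which were at least 10.3-fold, 15.3-fold and 2.67-fold lower. Other members lay the other way. TPS1 (0.32 ± 0.22), HSP26 (0.29 ± 0.38), HSP104 (0.34 ± 0.23), HSP78 (0.72 ± 0.40) and HSP42, with 483 against 206 and 276 (1.02 ± 0.40), were above both wild-type arrays without a call.

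Of 23 tested chaperone genes under Hsf1, 1 rose (SSE2) and 0 fell, 20 lay above 0, and the median was 0.42 (0.34 against replicate 1 and 0.60 against replicate 2). HSP82 had 2908 in the ada1 deletion array, against 1588 and 1459 in wild type (0.93 ± 0.22, adjusted p = 0.000526, limma), short of 2-fold against each. BTN2 had 880.5 against 395 and 434 (1.09 ± 0.38, adjusted p = 0.051, limma) and was not called.

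In glycerol synthesis 1 isoform of each step fell. GPD1 and GPP2 encode the isoforms induced by osmotic stress, and GPP2 also stands in the phosphate list. GPP2 had 188 in the ada1 deletion array, against 1584 and 1567 in wild type (-3.07 ± 0.25), whereas its partner GPP1 had 6195 against 11550.5 and 6902 (-0.53 ± 0.60) and was not called. GPP2 and GPD1 were the only falls, 2 of 8 tested genes. The catabolic genes DAK1, with 4907 against 2568 and 2341 (1.001 ± 0.26), and GUT2 (1.02 ± 0.40) lay above both wild-type arrays without a call.

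Of the hexose transporter genes bright enough to test, all but HXT2 fell. HXT4 had 59.5 in the ada1 deletion array, against 534 and 697 in wild type (lower by at least 3.68-fold). HXT3, a low-affinity transporter, had 2641 against 8139 and 5821 (-1.38 ± 0.40, adjusted p = 0.01, limma) and was no longer called once arrays were scaled to a common median or dim signals raised. HXT2, a transporter of intermediate to high affinity, had 4609 against 3758 and 3594 (0.33 ± 0.31). In all 4 of 8 tested genes of glucose transport and sensing fell and the median was -1.04, or -0.20 when dim members were included. The glucose sensor genes SNF3 and RGT2 had 219.9 and 191 in the ada1 deletion array, against 156 and 204 and against 152 and 180.2 in wild type.

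Downstream of transport, 0 of 16 tested genes of glycolysis and fermentation were called by limma with the 2-fold rule, with 1 lower and 0 higher at an unadjusted p under 0.05. Their median was 0.31, but -0.14 against replicate 1 and 0.80 against replicate 2, so no direction can be given. PFK27, which makes the activator of phosphofructokinase, fell (145 against 541 and 563, at least 3.33-fold lower). Among genes of carbon use repressed by glucose, HXK1 and the cytosolic malate dehydrogenase gene MDH2 (689.8 against 1704 and 1632, -1.27 ± 0.22) fell, 2 of 5 tested.

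**Figure D4:**
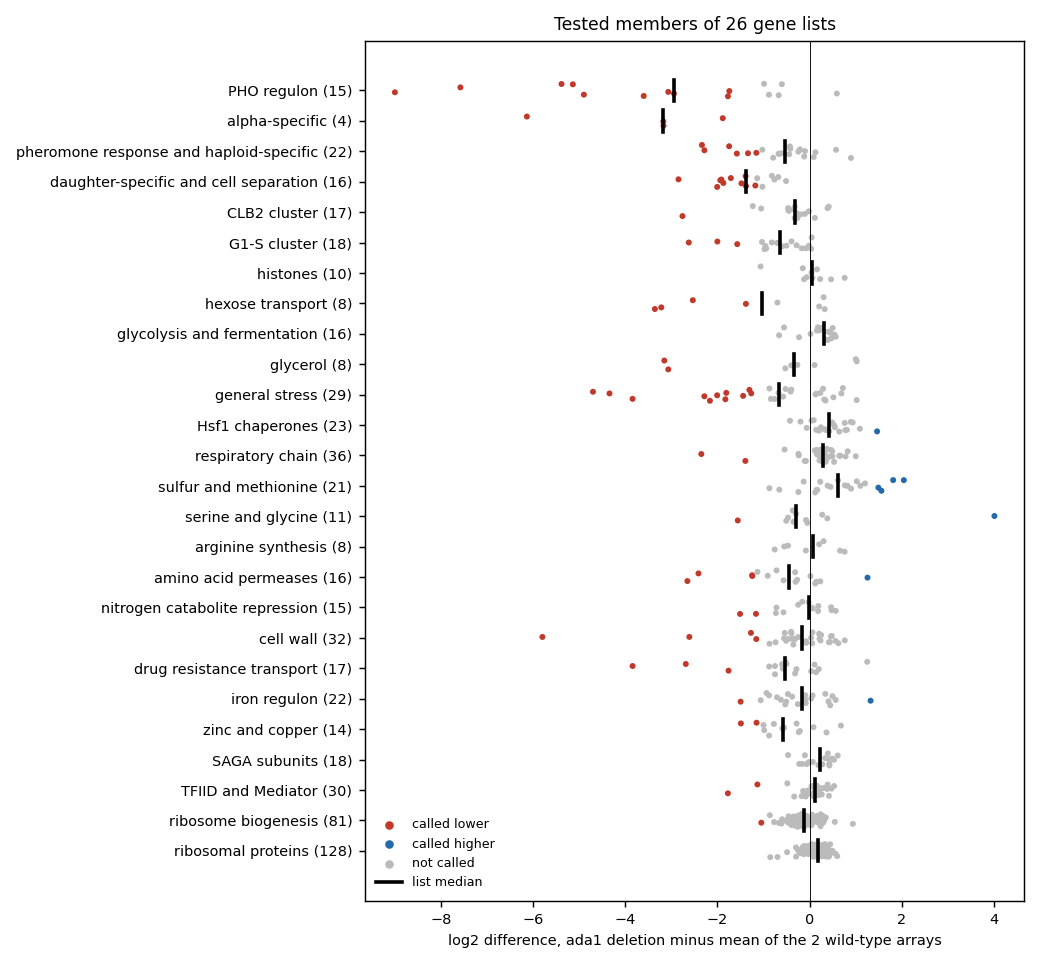
Log2 difference (ada1 deletion minus the mean of the wild-type arrays) of the tested members of 26 gene lists; the number tested stands after each name, red points are called falls, blue points called rises, grey points not called and black bars the list medians. The phosphate regulon, alpha-specific, daughter-specific and hexose transport lists have medians of -2.94, -3.17, -1.38 and -1.04, and sulfur and methionine has 0.62. The medians of the other lists run from -0.67 (general stress) to 0.42 (Hsf1 chaperones), where the median of all genes is 0.08.

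Amino acid permeases fell in part. Of 16 tested genes 4 fell and 1 rose (median -0.44). GNP1, a glutamine permease gene, had 1669.5 in the ada1 deletion array, against 4127 and 3811 in wild type (-1.25 ± 0.27), and BAP3, a branched-chain amino acid permease gene, 793 against 1801 and 1956 (-1.24 ± 0.22). Its relative BAP2 (-1.13 ± 0.24) and the tryptophan permease gene TAT2 (-0.91 ± 0.22) passed the adjusted p but not the 2-fold rule. The basic amino acid permease genes CAN1 (-0.30 ± 0.27) and LYP1 (-0.57 ± 0.22) were not called. MUP3, a low-affinity methionine permease gene, rose, with 749 against 266 and 369.5 (1.25 ± 0.39), but not with dim signals raised.

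Few genes of amino acid synthesis were called outside 2 branches. Of 36 tested targets of Gcn4 in amino acid synthesis other than arginine, LEU9, for a leucine synthesis enzyme, and HIS4, for a histidine synthesis enzyme, fell, with 582 and 1339 in the ada1 deletion array, against 1890.4 and 1637 and against 3919.7 and 3466 in wild type, and 0 rose (median 0.05, and -0.00 against replicate 1). By fold alone, 7 of the 36 were 2-fold lower and 0 higher against replicate 1, and 3 lower and 2 higher against replicate 2. PCL5, a cyclin gene whose product marks Gcn4 for degradation, had 175 against 827 and 943 and fell by 2.33 ± 0.28. Of 8 tested genes of arginine synthesis 0 were called by limma with the 2-fold rule, with 2 lower and 2 higher at an unadjusted p under 0.05. ARG1 had 2055 against 2099.5 and 805 and ARG3 71.2 against 171 and 84.7, with the wild-type arrays far apart in both. Of 15 tested genes under nitrogen catabolite repression, MEP3, an ammonium permease gene (-1.51 ± 0.27), and GAT1, an activator gene (at least 2.17-fold lower, adjusted p = 0.0442, limma), fell. GAT1 lost its call with a common median, with dim signals raised and with the 3 arrays alone.

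Serine synthesis held the largest called rise. SER3 and SER33 encode the isoforms of the first enzyme of the pathway, 3-phosphoglycerate dehydrogenase. SER3 had 5332 in the ada1 deletion array, against 342 and 321 in wild type (4.01 ± 0.29), whereas SER33 had 1213 against 1518 and 1612 (-0.37 ± 0.22) and was not called. The later enzyme genes SER1 (-0.47 ± 0.26) and SER2 (-0.29 ± 0.24) were not called either. CHA1, the deaminase that breaks serine and threonine down, had 776 against 2399.7 and 2177 and fell by 1.56 ± 0.22. So of 11 tested genes 1 rose, in synthesis, and 1 fell, in breakdown.

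Some genes of sulfate uptake and reduction rose. Sulfate enters through Sul1 and Sul2 and is activated by Met3 and Met14, reduced by Met16 to sulfite and by Met5 and Met10 to sulfide, and joined to homocysteine by Met17. Of 21 tested genes 4 rose and 0 fell, 17 lay above 0, and the median was 0.62 (0.60 against replicate 1 and 0.59 against replicate 2). SUL2 had 519 in the ada1 deletion array, against 99.1 and 160.1 in wild type, and MET3 1558 against 398 and 496. Both wild-type signals of SUL2 were under the background level, and it was tested only through its ada1 deletion signal. MET10 and MET13, for a methylenetetrahydrofolate reductase, completed the calls (1.49 ± 0.23 and 1.56 ± 0.37).

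Other steps lay above both wild-type arrays without a call. MET14 had 2128 in the ada1 deletion array, against 957 and 1362 in wild type (0.90 ± 0.22), MET5 1697 against 737 and 945 (1.02 ± 0.24), and MET16 518 against 164 and 309 (1.20 ± 0.40). All 3 passed the adjusted p and reached 2-fold against replicate 1 alone. MET17 had 14442 against 7629 and 5940.4 (1.10 ± 0.61). The S-adenosylmethionine synthase genes SAM1 (-0.66 ± 0.32) and SAM2 (0.17 ± 0.27) and CYS4 (-0.87 ± 0.38), which leads from homocysteine toward cysteine, were not called. The number of rises was 7 without the filter on dim probe sets.

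In thiamine metabolism 1 gene rose and 1 fell out of 13 tested. THI13, on a shared probe set that may bind its near-copies, had 956 in the ada1 deletion array, against 90.7 and 83.0 in wild type (higher by at least 5.77-fold). Both wild-type signals were under the background level, and THI13 was tested only through its ada1 deletion signal. PHO3, the acid phosphatase that cleaves thiamine phosphates outside the cell, had 44.4 against 2269.8 and 2149.7, at least 13.3-fold lower. PHO3 lies beside its close relative PHO5. The transporter gene THI7 (0.69 ± 0.32) and the kinase gene THI20 (0.88 ± 0.39) were above both wild-type arrays without a call.

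Further rises came singly. FRD1, the soluble fumarate reductase gene, had 6244 in the ada1 deletion array, against 2323 and 2470.5 in wild type (1.38 ± 0.27). COA2, a cytochrome oxidase assembly gene, had 665 against 201 and 256 (1.55 ± 0.40), and SOM1, for a subunit of the mitochondrial inner membrane peptidase, 449.8 against 155 and 178 (1.44 ± 0.39). BUR6, for a subunit of the transcription regulator NC2, had 2211 against 680.0 and 898 (2.83-fold higher). A pair of unnamed probe sets rose as well, by 1.66 ± 0.38 and 1.597 ± 0.22. A call requires each of these signals to be above both wild-type arrays. The adjusted p among the 20 leading rises was at most 0.00584 (limma), 0.00354 after quantile normalization and 0.0381 with dim signals raised.

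Some cell surface genes fell, by unequal amounts. Of 32 tested cell wall genes 4 fell and 0 rose (median -0.17), where 3.85% of all genes tested fell. CWP1, a wall mannoprotein gene, had 68.9 in the ada1 deletion array, against 3738 and 3920.3 in wild type (lower by at least 23.1-fold). The glucanase gene EXG1 had 1225 against 8620.1 and 6477 (-2.61 ± 0.36), the crosslinking enzyme gene UTR2 2175 against 6166 and 4483 (-1.27 ± 0.33, not called with a common median), and PST1 764 against 1644 and 1769 (-1.16 ± 0.22). CWP2, another wall mannoprotein gene, had 7822 against 16551 and 7808 and was not called. The glucan synthase genes FKS1 (0.06 ± 0.53) and GSC2 (0.62 ± 0.23) were not called. Without the filter on dim probe sets 7 members fell.

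Each group of other membrane transporters held falls. Over all genes tested, 3.85% fell and 0.771% rose. Of 17 tested drug resistance genes 3 fell and 0 rose (median -0.53), the third beside QDR2 and the polyamine transporter gene TPO4 (lower by at least 3.33-fold and 1.82-fold, TPO4 not being called with dim signals raised) being PDR12, the weak acid pump gene, with 388 in the ada1 deletion array, against 1129 and 1524 in wild type (-1.76 ± 0.25). PDR5, the main drug pump gene, had 6215 against 8864 and 6481 (-0.29 ± 0.52) and was not called. Of 14 tested genes of zinc and copper, ZRT2, a low-affinity zinc transporter gene (481 against 1489 and 1228), and FET4, a low-affinity metal transporter gene (602 against 1361 and 1316), fell (median -0.57). In the iron regulon the siderophore transporter gene ENB1 fell (-1.497 ± 0.29) and FIT3, a wall mannoprotein gene of siderophore uptake, rose (1.32 ± 0.33), out of 22 tested, and FIT3 was no longer called with arrays scaled to a common median.

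Genes of low oxygen and respiration had 3 falls and 1 rise among 15 tested hypoxic and sterol-responsive genes and 2 falls among 36 tested respiratory chain genes. The shares over all genes tested were 3.85% for falls and 0.771% for rises. COX5B, an isoform made under low oxygen, belongs to both lists, and TIR1 and TIR3 (-1.33 ± 0.27) are wall mannoprotein genes. PDR11, a sterol uptake gene, rose with 384 in the ada1 deletion array, against 156 and 182 in wild type (1.19 ± 0.34), but not with the background level taken from genes the strain lacks. The respiratory median was 0.30 (0.31 against replicate 1 and 0.27 against replicate 2). In ergosterol synthesis ERG5 alone of 24 tested was called, with 743 against 2198 and 1999 (-1.497 ± 0.22). Of 16 tested lipid genes the phospholipase gene PLB2 fell (-2.03 ± 0.26) and PLN1, of lipid droplets, rose (1.74 ± 0.31). Of 10 tested peroxisome genes PEX27 rose (1.62 ± 0.39), and of 11 tested genes of the DNA damage response HUG1 rose (1.75 ± 0.37) and RNR1 fell.

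The transcription machinery itself was little changed. Of 18 tested genes of other SAGA subunits 0 were called by limma with the 2-fold rule, with 1 lower and 0 higher at an unadjusted p under 0.05, and the median was 0.23 (0.43 against replicate 1 and 0.06 against replicate 2). TAF12, whose product pairs with Hfi1, had 496 in the ada1 deletion array, against 362 and 783 in wild type, between them. SPT7, another core subunit gene, had 498 against 277 and 385 (0.61 ± 0.40), and SPT20 289 against 197 and 215 (0.49 ± 0.38). Of 30 tested genes of TFIID and Mediator, the related bromodomain genes BDF1 and BDF2 fell and 0 rose. BDF2 had 236 against 658 and 993 (-1.77 ± 0.29) and BDF1, whose product binds acetylated histones and joins TFIID, 612 against 1309 and 1377 (-1.13 ± 0.22). SPT15, the gene of TATA-binding protein, had 2927 against 2148 and 3048.

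The large housekeeping groups gave almost no calls. Of 128 ribosomal protein genes, 33 proteasome genes, 31 RNA polymerase subunit genes, 65 mitochondrial ribosome genes and 17 purine synthesis genes, 0 were called by limma with the 2-fold rule. At an unadjusted p under 0.05 there were 2, 0, 2, 2 and 2 lower and 1, 0, 2, 2 and 0 higher. Of 81 ribosome biogenesis genes DBP2, an RNA helicase gene, fell (-1.05 ± 0.22), and it lost that call after quantile normalization, with a common median and with a single variance prior. The ribosomal protein median was 0.18, but -0.18 against replicate 1 and 0.53 against replicate 2, so its sign turns with the array. The same held for ribosome biogenesis, with -0.12, and 0.06 and -0.28 against replicates 1 and 2.

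Called genes sat next to each other in 11 of 3378 adjacent pairs of tested genes, by gene order in RefSeq. In 9 pairs both genes fell. Over all genes tested 4.62% were called and 3.85% fell, and an excess of called neighbours over those shares was not tested. The divergent pairs, which share the space between their starts, were SPL2 with ARO9 and PHO81 with YHB1. The pairs read in the same direction were PHO3 with PHO5, HMS2 with BAT2, PDR12 with SUR1, YLR285C-A with CTS1, YAR068W with PHO11 and the transposon genes YAR009C with YAR010C, and CLB1 and CLB6 converge. YLR285C-A was not called with dim signals raised. HMS2, a regulator gene of filamentous growth, and BAT2, a branched-chain aminotransferase gene, had 192 and 1374 in the ada1 deletion array, against 491 and 607 and against 3679 and 4499.7 in wild type. In the 2 pairs with opposite changes, FUS1 with HBN1 and MUP3 with VMR1, the genes converge.

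Among the 20 outermost genes of each chromosome end, 20 of 337 tested fell (5.93%) and 5 rose (1.48%). Among the inner genes 148 of 4054 fell (3.65%) and 26 rose (0.641%). The median difference was 0.10 at the ends and 0.08 inside. Of 13 tested genes of the subtelomeric families, the seripauperin and COS genes, 0 were called by limma with the 2-fold rule, with 0 lower and 2 higher at an unadjusted p under 0.05. Medians by chromosome lay between 0.02 and 0.18.

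The array of the gcn5 deletion strain, BY4742 without the acetyltransferase subunit of the same complex, was set directly against the ada1 deletion array to see where the strains part. Each side is a single array, so the differences are given with no test. The ada1 deletion array was lower by 2-fold or more in 223 of 4541 genes (4.91%), in 61 of which it was under the background level, and higher in 104 (2.29%). In addition the gcn5 deletion array has the narrower signal range of wild-type replicate 2, so strain and range cannot be told apart for bright genes. PHO84 had 18.4 in the ada1 deletion array and 3299 in the gcn5 deletion array, at least 19.9-fold lower, and CWP1 68.9 and 1948, at least 11.8-fold lower.

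Some genes that fell without Hfi1 stood at or above wild type without Gcn5. PIL1, the main eisosome protein gene, had 1136 in the ada1 deletion array and 5986 in the gcn5 deletion array, against 4862 and 4859 in wild type, and the direct difference, ada1 deletion minus gcn5 deletion, was -2.40. RPI1 had 34.3 and 641, against 309.5 and 348 (at least 3.87-fold lower in the ada1 deletion array than in the gcn5 deletion array), and QDR2 38.5 and 791, against 509 and 599 (at least 4.77-fold). SER3 had 5332 and 501, against 342 and 321 (3.41). For other genes the strains lay close together. PHO5 had 233 and 246, against 2595 and 3075, with a direct difference of -0.08, and PHO11 191 and 203, against 7387 and 6088 (-0.09). With 1 array a strain, the error of these differences was not measured.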

How the data were processed

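The authors deposited 1 intensity value per probe set, a linear MAS5 signal according to the submitters' processing notes. The MAS5 version was not given in the sources used here, nor were its scaling target and detection calls. Of 5716 probe sets, 5498 had a single gene symbol in the platform annotation and 218 had none, and RefSeq updated 12 symbols. Where a gene had several probe sets (47 genes), the brightest by mean log2 signal was used. The 4541 features at or above the background level on average (4393 named) entered limma (version 3.58.1, R 4.3.3) as log2 signals, with lmFit and trended eBayes over all 4 arrays in 3 groups. The prior degrees of freedom were infinite as deposited, so p-values are too small for genes whose spread is unusual. They were 9.17 after quantile normalization. Figures were drawn with matplotlib 3.10.9. Simulated data tested the fit.

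The text names the 30 largest falls and 20 largest rises by the smaller difference against the wild-type arrays, up to 8 members of each list, called neighbours and the 5 genes on which the wild-type arrays differ most. Genes outside this rule were chosen after their values were seen. The comparison and the 41 gene lists were chosen with earlier results of these data known. Alternatives were quantile normalization, a common median, other filters and background levels, a single variance prior, 3 arrays, no shared probe sets, other folds and each wild-type array alone.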

Additional observations from a re-analysis of the deposited data

How the results depend on the processing

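The 35 genes called higher in the ada1 deletion array became 87 with no filter on dim signals and 78 with the background level taken from genes the strain lacks, 109 at 1.5-fold and 8 at 3-fold. The 175 called lower became 88 at 3-fold. Leaving out 1 wild-type array leaves no residual degrees of freedom and no test. By fold alone, 69 to 120 genes were then higher and 200 to 229 lower, with 69 higher and 229 lower without replicate 1 and 120 and 200 without replicate 2. The other settings gave 30 to 43 higher and 135 to 246 lower. Of 1053 tested genes that are named above or belong to a list, calls were lost by 2 after quantile normalization (DBP2 and DSE2), 9 after scaling to a common median, 24 with dim signals raised to the background level, 2 with the background level from genes the strain lacks, 1 with a single variance prior and 1 with the 3 arrays alone, and none changed direction. No paired analysis was possible because only wild type carries replicate numbers. The promoter motif shares were not run, since no promoter sequence was used here. MAS5 detection calls were not used, so signals near the background level carry no order, and the single ada1 deletion array limits every value above.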

Other observations

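The gene groups described here were chosen after the values were seen, so the counts of falls and rises in them are no test of the groups. Over all genes tested, 3.85% fell and 0.771% rose. Groups of NAD synthesis and salvage (17 tested) and autophagy (16 tested), chosen in the same way, had medians of 0.05 and 0.37. Of the 175 genes that fell in the ada1 deletion array, 95 belonged to no list above, and of the 35 that rose, 22. Of 14 tested genes of the eisosome and related plasma membrane domains, 6 fell, with a median of -0.77. PIL1, a core eisosome protein gene, had 1136 in the ada1 deletion array, against 4862 and 4859 in wild type (-2.10 ± 0.29), while its paralogue LSP1 had 1734 against 3284 and 2869.5 (-0.82 ± 0.25) and was not called. MRH1, a membrane protein gene, had 1754 against 10292 and 6647, and its paralogue YRO2 71.5 against 430.5 and 388. Of 30 tested genes of sphingolipids and long-chain fatty acids 6 fell (median -0.13). They included IPT1 and SUR1, which act in the last steps of complex sphingolipid synthesis, with 299.9 and 263 in the ada1 deletion array, against 1129 and 1009 and against 966 and 892 in wild type, and the ceramidase gene YPC1 (54.9 against 282 and 345), which lost its call with dim signals raised. Of 12 tested genes of amino acid breakdown and aroma esters 8 fell (median -1.53), among them BAT2, the ester synthesis genes ATF2 and EHT1 (at least 3.21-fold lower, and -1.79 ± 0.35), and the butanediol dehydrogenase gene BDH1 (-1.57 ± 0.23).

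Of 27 tested regulator genes, a group also chosen after the values were seen, 10 fell and 1 rose. Over all genes tested, 3.85% fell and 0.771% rose. MIG2, a glucose repressor gene, had 108 in the ada1 deletion array, against 413 and 430.3 in wild type, a fall not called with dim signals raised, and the filamentation regulator genes TEC1 and PHD1 had 177 and 272 against 576 and 786 and against 859.6 and 1067. BUR6 and NCB2 encode the partners of NC2, which binds TATA-binding protein, and they lay on opposite sides of wild type. BUR6 had 2211 against 680.0 and 898, and NCB2 668 against 1273 and 1633, short of 2-fold against replicate 1. AFB1, an a-factor barrier gene that only alpha cells express and that was in no list, had 1400.3 against 7135 and 6167 (-2.24 ± 0.27). The transposon genes YAR009C, YAR010C, YBL100W-A and YDR261C-D, read by shared probe sets, fell, with 1059 against 3803 and 5744 for YAR010C. The wild-type arrays differed by more than 2-fold for YAR009C (602 and 1267) and YBL100W-A (299 and 818).

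Among 1126 genes too dim on average to be tested, 109 were above the background level in the ada1 deletion array alone, and 21 of these were also 2-fold above each wild-type array. They include genes of varied roles, and those named here were picked after their values were seen. DIT1, a spore wall gene, had 224 in the ada1 deletion array, against 47.1 and 42.0 in wild type, OSW2, another spore wall gene, 210.4 against 29.0 and 22.4, and SSP1, for a protein of the prospore membrane edge, 204 against 49.4 and 61.2. PCK1, the gluconeogenic phosphoenolpyruvate carboxykinase gene, had 250.2 against 98.7 and 107. BNA2, for the first enzyme of NAD synthesis from tryptophan, had 295 against 36.2 and 39.2. The sulfur regulator genes MET28 and MET32 had 232 and 166, against 79.3 and 88.2 and against 51.0 and 79.2. In the other direction, 15 were above the level in both wild-type arrays alone and 9 of these 2-fold lower in the ada1 deletion array, among them ARO10, a decarboxylase gene that acts after ARO9, with 36.5 against 255 and 215, and RSB1, a sphingoid base transporter gene, with 11.5 against 187 and 179. None of these values was tested.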
